A study of Mus musculus with 4 samples.

Results

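Transcript levels of the interleukin-7 (IL-7) receptor, its JAK kinases, the STAT5 factors and the SOCS family inhibitors were compared between 2 subpopulations of the mouse common lymphoid progenitor, CLP_RAGhigh and CLP_RAGlow. The members were the 10 genes Il7r, Il2rg, Jak1, Jak3, Stat5a, Stat5b, Socs1, Socs2, Socs3 and Cish, chosen by name, with every probe set of the Affymetrix MOE430_2 array that the platform annotation assigns to 1 gene of that name. The rule found 21 of 34945 such probe sets, which covered 9 of the 10 genes and 9 of 18193 genes in all. The annotation used here assigned no probe set to Il2rg, which was not analysed here. The cells of all 4 samples were taken from bone marrow of C57Bl6 animals 8 to 12 weeks of age, and RNA of 2000 sorted cells per sample was amplified and hybridised to 1 array each. The groups were 2 arrays of CLP_RAGhigh and 2 of CLP_RAGlow, which the labels describe as the fractions with a high and a low level of GFP. The labels do not describe the reporter allele behind that GFP and give no treatment. Every sample title has the word biological in front of its replicate number. Neither animals nor sorts are named there, so it is open how separate the replicates were. A p-value here sets the difference of the groups against the spread between samples of 1 group, moderated by the spread of all genes. The technical share of that spread is not known.

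IL-7 is a cytokine of the bone marrow stroma that B- and T-cell progenitors need for survival and growth. The receptor is a dimer of the IL-7 receptor chain, encoded by Il7r, and the common gamma chain, encoded by Il2rg and shared with other interleukin receptors. The kinase JAK1 is bound to the first chain and JAK3 to the second, and on binding of IL-7 they phosphorylate the receptor and then STAT5A and STAT5B, which dimerise and enter the nucleus. STAT5 induces genes that include the inhibitors of the same pathway, CIS (the product of Cish) and SOCS proteins, which bind phosphorylated receptors or JAKs and close a feedback loop. Surface IL-7 receptor is also among the markers by which the common lymphoid progenitor is defined.

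STAT dimers bind the palindromic motif TTCNNNGAA, which reads the same on both strands. Of the 10 genes, the 9 other than Socs2 had a promoter in the RefSeq table and were searched (GRCm38.p6, 11 windows of 250 bases before to 50 bases after a start site), and 3 genes held the motif, Il7r, Socs3 and Cish. The stretches of 30 bases around the matches are shown because they allow the letters of the receptor gene to be compared with those of the feedback inhibitors. Each is printed 5′ to 3′ on the strand of its gene with the motif in capitals, for Il7r from chr15:9529999-9530028 (minus strand), for Socs3 from chr11:117969501-117969530 (minus strand) and for Cish from chr9:107296654-107296683 (plus strand).
Il7r: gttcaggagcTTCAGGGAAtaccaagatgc
Socs3: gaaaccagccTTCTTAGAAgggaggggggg
Cish: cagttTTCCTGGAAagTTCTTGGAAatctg
The Cish stretch held 2 matches side by side, without overlap, at the annotated start site. Those of Il7r and Socs3 held 1 match each, upstream of the start site used for their window. The Socs3 stretch lay inside the annotated span of its gene, chr11:117966079-117970336. Of all 32851 promoter windows of this length, 8.3% held at least 1 match and 0.457% held at least 2. Counted by gene, 9.55% of 27025 genes had a match in at least 1 window. A match is a description of the letters and not a measured binding site.

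The cells were checked against other genes that define this progenitor. Of 10 such genes 8 were measured, and all 8, among them Flt3, Kit, Dntt and Ly6d, lay above the median of all probe sets (3.88 on the log2 scale) on every array. That is a low bar, since 11576 of all 18193 genes had a mean above it, and it does not by itself identify the cells. The levels of the 8 were not all alike in the groups. In CLP_RAGhigh 4 lay above without overlap (15.4% of all genes) and 2 below (15.8%). Ly6d differed by 2.51 ± 0.41 and Cd34 by -1.12 ± 0.32 (SE), with limma adjusted p of 0.403 and 0.813. The group names say RAG and do not tell Rag1 from Rag2. Rag1 had log2 intensities of 10.92 and 10.62 in CLP_RAGhigh and 7.72 and 8.53 in CLP_RAGlow. Rag2 read 9.47 and 9.15 in CLP_RAGhigh and 8.12 and 8.72 in CLP_RAGlow. Median intensities of the arrays lay between 14.5 and 14.8, and their number limits the precision of all values. The ratio of the 3′ to the 5′ control probe set of Actb, a sign of RNA and amplification quality, was 16.2 and 9.62 on the CLP_RAGhigh arrays and 13.5 and 24.5 on the CLP_RAGlow arrays (replicates 1 and 2). The CLP_RAGhigh replicate 1 array stood apart in the sum of the 15 immediate early genes, 7053 against 799 to 1059 on the other 3 arrays. Most of that sum was Fos. Ier3, Egr2 and Nr4a1 had their lowest value on this array, and the rest of the list had their highest there. The CLP_RAGlow replicate 2 array stood apart in markers of granulocytes, of which 5 of 13 measured, S100a8, S100a9, Ngp, Camp and Ltf, were dim on it alone, below 3.88 on the log2 scale. These 5 genes were chosen after their values were seen. S100a8 read 3.81 there and 9.60 to 10.15 on the other 3 arrays, and Ngp 3.80 against 9.01 to 10.38.

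Transcripts of the receptor chain and both kinases had higher means in CLP_RAGhigh, and those of STAT5 overlapped between the groups. The inhibitors went in different directions, with Cish and Socs1 higher and Socs2 lower in CLP_RAGhigh. Socs3 had a lower mean there, but its groups overlapped. The direction of Socs3 changed when either of 2 arrays was left out. Of the 9 genes, each read from its brightest probe set, the mean was higher in CLP_RAGhigh for 7, against 50.6% of all genes, and lower for 2. There was no overlap between the groups for 6 of the 9, against 31.1% of all genes. Above were 5, Il7r, Jak1, Jak3, Socs1 and Cish, against 15.4% of all genes, and below was 1, Socs2, against 15.8%. The median log2 difference was 0.37 over the 9 genes and 0.0028 over all 18193. No member passed the test: with limma, fitted on all genes with Benjamini-Hochberg adjustment, 0 of the 9 had an adjusted p under 0.05, as did 0 of all 18193 genes (0%), and the members' adjusted p ran from 0.886 to 1. At an unadjusted limma p under 0.05 there was 1 member, Socs2, against 5.29% of all genes. In sorted bulk samples, fewer cells with a transcript and less of it per cell cannot be told apart.

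**Figure D1:**
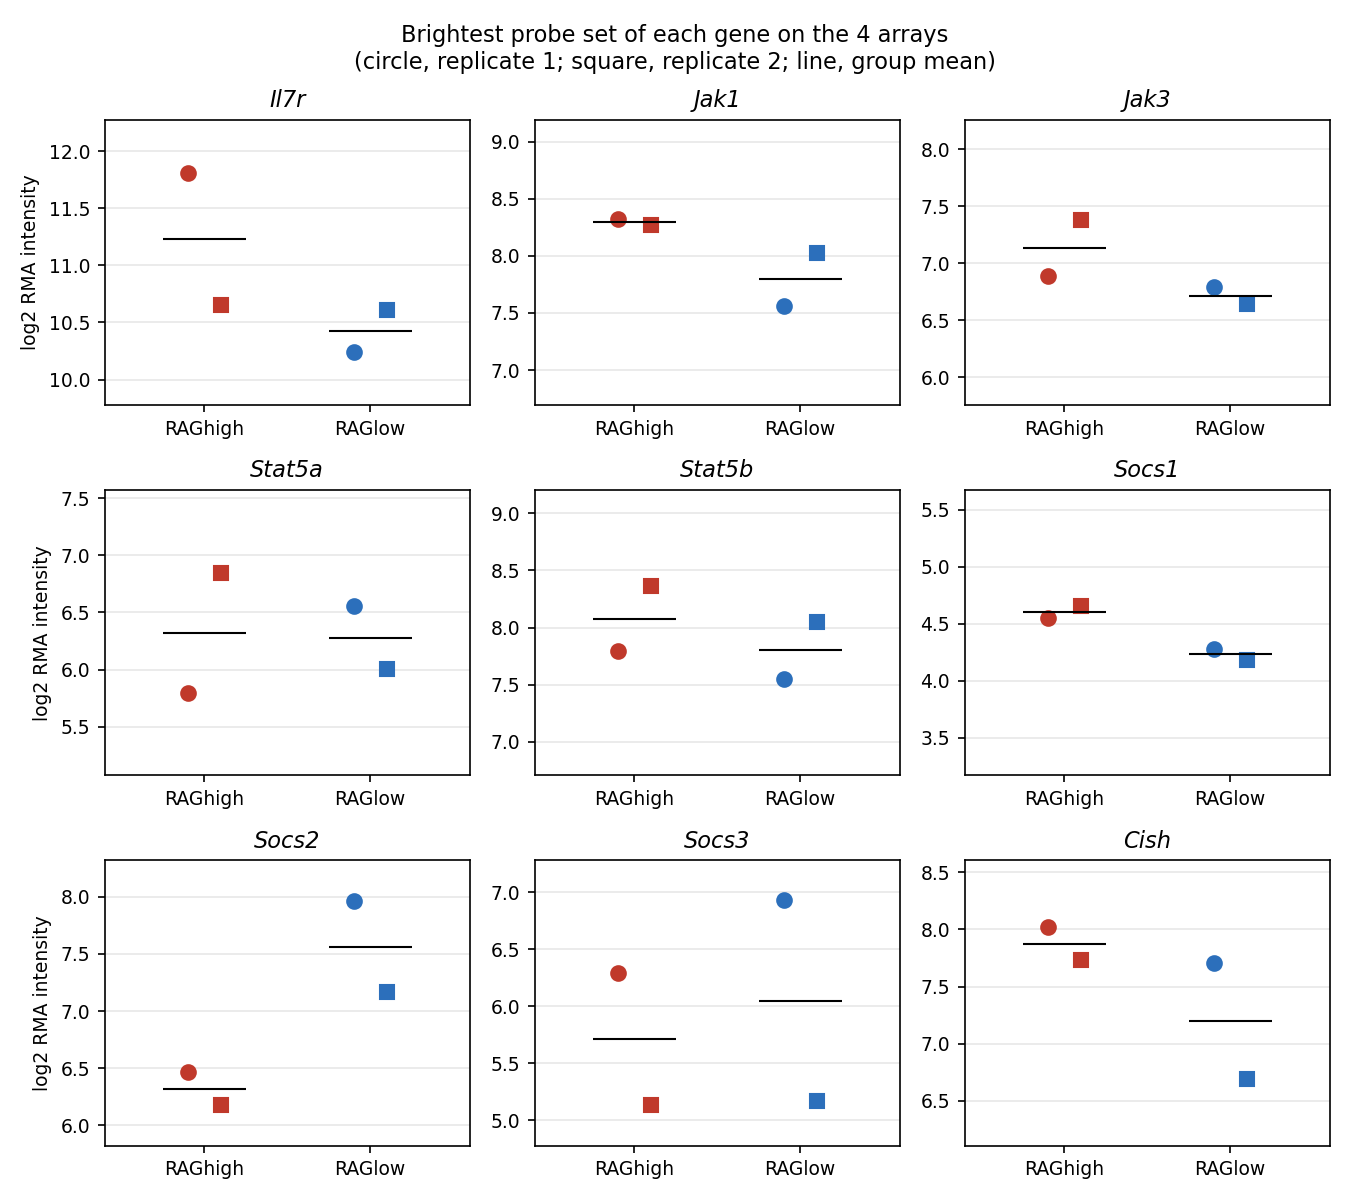
Log2 RMA intensity of the brightest probe set of each of the 9 genes on the 4 arrays, with CLP_RAGhigh in red, CLP_RAGlow in blue, replicate 1 as a circle, replicate 2 as a square and a line at each group mean; every panel spans the same log2 range around its own centre. Both CLP_RAGhigh arrays lie above both CLP_RAGlow arrays for Il7r, Jak1, Jak3, Socs1 and Cish and below them for Socs2, and the groups overlap for Stat5a, Stat5b and Socs3.

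Il7r, the receptor chain specific to IL-7 and the related cytokine TSLP, had log2 intensities of 11.81 and 10.65 in CLP_RAGhigh and 10.24 and 10.60 in CLP_RAGlow. The CLP_RAGhigh replicate 1 array was high, while the replicate 2 arrays of the groups lay 0.049 apart. The means were 11.23 ± 0.82 and 10.42 ± 0.26 (SD, n = 2 each), a log2 difference of 0.81 ± 0.39 (SE), with a 95% interval from -0.15 to 1.77 and a limma adjusted p of 0.971. The fainter of its 2 probe sets had the same order, at 8.57 and 7.36 in CLP_RAGhigh and 6.66 and 7.34 in CLP_RAGlow. Without CLP_RAGhigh replicate 1 the difference was 0.23, and without CLP_RAGhigh replicate 2 it was 1.39. The size of the Il7r difference thus came mainly from the array with the high sum of immediate early genes. Fos had a log2 intensity of 12.27 on it, against 5.17 to 7.28 on the other arrays. The part of that in the result was not tested.

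Among the 11202 other genes above the median of all probe sets in both groups, those closest to Il7r over the 4 arrays were Clk1, Eral1, Clk2, Dmtf1 and 4933439C10Rik. Likeness was measured as the root mean square difference of log2 values centred on each gene's mean, which was 0.030 for Clk1 and 0.052 to 0.054 for the other 4. Each of these genes was highest on CLP_RAGhigh replicate 1, as was Il7r. Clk1 read 11.11 and 9.90 in CLP_RAGhigh and 9.47 and 9.83 in CLP_RAGlow. The groups overlapped for Eral1 and Dmtf1. Clk1 and Clk2 encode kinases of splicing factors. With 4 arrays, 93 genes lay within 0.2 of Il7r by this measure.

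The probe sets assigned to Jak1 or Jak3 alone all read higher on both CLP_RAGhigh arrays than on both CLP_RAGlow arrays, as did 15.5% of all probe sets. Jak1, the kinase bound to the IL-7 receptor chain, had log2 intensities of 8.32 and 8.27 in CLP_RAGhigh and 7.56 and 8.02 in CLP_RAGlow by its brightest probe set. The next probe set read 7.53 and 7.48 against 6.70 and 6.54, and the faintest 6.25 and 5.66 against 5.27 and 4.45. The 3 probe sets agreed in direction and none overlapped between the groups, but in the fit of all probe sets the log2 difference ran from 0.50 ± 0.31 over 0.89 ± 0.32 to 1.09 ± 0.46 (SE, n = 2 per group). The limma adjusted p was 0.983 for the gene in the fit of all genes, where the 95% interval ran from -0.32 to 1.33 and the difference was 0.27 without CLP_RAGlow replicate 1, and 1 for each of the 3 in the fit of all probe sets. The unadjusted p of the next brightest probe set was 0.0395, with a 95% interval from 0.063 to 1.72, while 4.8% of all probe sets had an unadjusted p under 0.05. With the probe sets averaged the Jak1 difference was 0.83, with an adjusted p of 0.909. Over all alternatives its adjusted p ran from 0.714 to 1.

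Jak3, the kinase bound to the common gamma chain, had log2 intensities of 6.89 and 7.38 in CLP_RAGhigh and 6.79 and 6.64 in CLP_RAGlow. The groups did not overlap, but the lower CLP_RAGhigh array was 0.10 above CLP_RAGlow replicate 1. The log2 difference was 0.42 ± 0.37, with a 95% interval from -0.50 to 1.34 and a limma adjusted p of 1. It ran from 0.18 without CLP_RAGhigh replicate 2 to 0.66 without CLP_RAGhigh replicate 1. Unlike that of Il7r, it was larger without the array with the high sum of immediate early genes. The annotation assigns 2 more probe sets to Jak3 together with Insl3, a hormone gene of the testis, and they were kept out of the comparison. The brighter of them was also brighter than the one used, at 8.29 and 8.62 in CLP_RAGhigh and 8.12 and 8.41 in CLP_RAGlow, a difference of 0.19 with overlapping groups. The other was dim, at 2.71 and 2.84 against 2.50 and 2.32, without overlap.

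For the STAT5 genes the arrays of the groups overlapped. Stat5a had log2 intensities of 5.80 and 6.85 in CLP_RAGhigh and 6.56 and 6.003 in CLP_RAGlow. The CLP_RAGhigh arrays were the lowest and the highest of the 4, and the log2 difference was 0.04 ± 0.49, with a 95% interval from -1.17 to 1.253. It was -0.48 without CLP_RAGhigh replicate 2 and 0.57 without CLP_RAGhigh replicate 1, so its direction was not settled. Stat5b, the second STAT5 gene, had values of 7.80 and 8.36 in CLP_RAGhigh and 7.55 and 8.05 in CLP_RAGlow. Replicate 2 was the higher array in each group, and the difference was 0.28 ± 0.38, with a 95% interval from -0.66 to 1.22. Its fainter probe set read 5.09 and 5.17 against 5.02 and 4.55, and did not overlap. The limma adjusted p was 1 for both genes, and the intervals leave room for a difference of 1 log2 unit in either direction for Stat5a and upward for Stat5b. The second probe set of Stat5a was dim in both groups, at 2.18 and 2.42 in CLP_RAGhigh and 2.21 on both CLP_RAGlow arrays.

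By the brightest probe set and all 4 arrays, Socs2 had the largest difference of the members and the only one with a lower mean in CLP_RAGhigh whose groups did not overlap. SOCS2 is known in mice as a feedback inhibitor of growth hormone signalling through STAT5. The brightest probe set had log2 intensities of 6.47 and 6.17 in CLP_RAGhigh and 7.97 and 7.16 in CLP_RAGlow, and both CLP_RAGlow arrays were higher. The means were 6.32 ± 0.21 and 7.57 ± 0.57 (SD, n = 2 each), a log2 difference of -1.24 ± 0.42 (SE), 2.37-fold higher in CLP_RAGlow, with a 95% interval from -2.29 to -0.20. The limma p was 0.0272 before and 0.886 after adjustment over all genes, and 3.16% of all genes had a difference at least as large in either direction. With 1 array left out the difference lay between -1.65 and -0.84, the smallest without CLP_RAGlow replicate 1. Without CLP_RAGhigh replicate 2 it was -1.10, smaller than that of Il7r at 1.39. CLP_RAGlow replicate 1 had the highest value of the 3 brightest Socs2 probe sets, 7.97, 6.88 and 4.95, and was also the array with the highest summed intensity of granulocyte and monocyte markers, 9087 against 5048 to 5958. The part of this in the result was not tested.

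The size for Socs2 depended on the probe set. The name of the brightest carries the mark of probes shared by several transcripts (_s_). The next brightest read 6.02 and 5.17 in CLP_RAGhigh and 6.88 and 5.84 in CLP_RAGlow, so that its groups overlapped, and its difference was -0.77 ± 0.54. Of all 6 probe sets 5 had a lower mean in CLP_RAGhigh, 3 without overlap. Of these 3, the brightest was the only one not dim in either group: another was dim in CLP_RAGhigh, at 3.54 and 3.57 against 4.95 and 3.68, and the third was dim in both, at 2.19 and 2.05 against 2.43 and 2.39. The exception, at 0.23 ± 0.34, was dim in both groups and was at -0.24 without CLP_RAGhigh replicate 1. With all 6 averaged the difference was -0.49, with a limma adjusted p of 1, smaller than those of Il7r (0.89), Jak1 (0.83) and Cish (0.67) read in the same way. Without probe sets marked _x_ or _s_ it was -0.77, against 0.81 for Il7r. Over all alternatives the adjusted p of Socs2 ran from 0.553 to 1.

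Cish, whose product CIS binds phosphorylated receptors at the sites used by STAT5, went the other way from Socs2. Its log2 intensities were 8.02 and 7.73 in CLP_RAGhigh and 7.71 and 6.70 in CLP_RAGlow. The CLP_RAGlow replicate 2 array was low, and CLP_RAGlow replicate 1 lay just under the lower CLP_RAGhigh array. The difference was 0.67 ± 0.45 or 1.59-fold, with a 95% interval from -0.44 to 1.78 and a limma adjusted p of 0.983. Without CLP_RAGlow replicate 2 it was 0.17, and without CLP_RAGlow replicate 1 it was 1.18. CLP_RAGlow replicate 2 also had the highest 3′ to 5′ ratio of Actb, 24.5, and of Gapdh, 20.0 against 10.6 to 15.7 on the other arrays, and it was the array on which 5 granulocyte markers were dim. The part of these in the result was not tested.

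Socs1, an inhibitor that binds JAK kinases directly, was faint, at 4.55 and 4.66 in CLP_RAGhigh and 4.28 and 4.19 in CLP_RAGlow. The arrays of each group lay close together and the groups did not overlap, with a log2 difference of 0.37 ± 0.27 and a limma adjusted p of 0.991. With an offset of 32 added before log2, which shrinks the folds of faint genes, the difference was 0.15. Leaving out any 1 array gave 0.31 to 0.43.

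Socs3, an inhibitor best known from signalling by cytokines of the IL-6 family, differed more between replicates than between groups. Its brightest probe set had values of 6.29 and 5.13 in CLP_RAGhigh and 6.93 and 5.17 in CLP_RAGlow, and replicate 1 was the higher array in both groups. The other 2 probe sets read 4.46 and 4.60 against 5.40 and 4.51, and 4.66 and 3.48 against 5.88 and 3.16. All 3 had a lower mean in CLP_RAGhigh, at -0.34 ± 0.74, -0.43 ± 0.41 and -0.45 ± 0.98 in the fit of all probe sets, and all overlapped. The gene's limma adjusted p was 1, the 95% interval ran from -2.08 to 1.41, and the difference was 0.54 without CLP_RAGlow replicate 1 and 0.24 without CLP_RAGhigh replicate 2. The highest value of all 3 probe sets was on CLP_RAGlow replicate 1, the array with the highest sum of granulocyte and monocyte markers, as for Socs2.

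Over all 21 probe sets, the mean was higher in CLP_RAGhigh for 13, against 51.5% of all probe sets, and lower for 8. The groups did not overlap for 12, against 30.7% of all probe sets, with 9 above, against 15.5%, and 3 below, against 15.2%. Of the 6 genes with several probe sets, 5 had all of them in 1 direction, and Socs2 did not. Dim values in both groups were found for 3 probe sets, 2 of Socs2 and 1 of Stat5a. The 95% interval of the difference lay on 1 side of 0 for 2 probe sets, 1 of Jak1 and 1 of Socs2, and 0 of the 21 passed over all probe sets with limma (0 of 34945 did, 0%).

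**Figure D2:**
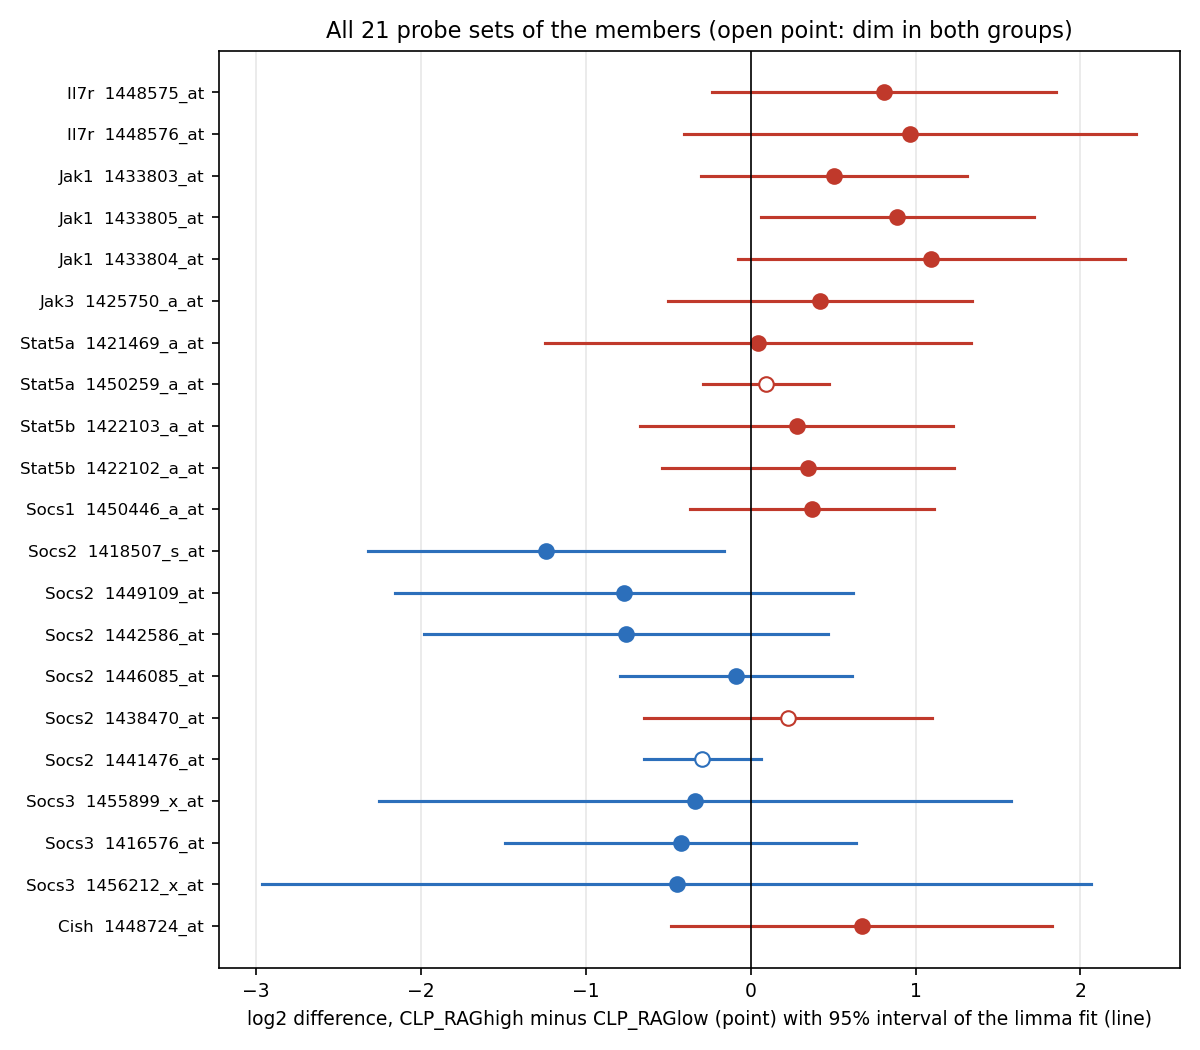
Log2 difference of each of the 21 probe sets, CLP_RAGhigh minus CLP_RAGlow, as a point with its 95% interval from the limma fit of all probe sets as a line; red is higher and blue lower in CLP_RAGhigh, and open points are dim in both groups. All probe sets of Il7r, Jak1, Stat5a and Stat5b lie to the right of 0, all 3 of Socs3 and 5 of 6 of Socs2 to the left, and 2 of the 21 intervals leave out 0.

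Leaving out each array in turn moved the size of most differences. Il7r, Jak1, Jak3, Socs1, Cish and Socs2 stayed on 1 side of 0, which follows from groups that do not overlap and says nothing further about them. Stat5a and Socs3 changed sign when either of 2 arrays was left out, and Stat5b without CLP_RAGhigh replicate 2, where it was at -0.0030. The number of the 9 genes with a higher mean ran from 6 to 8, and was 7 without CLP_RAGhigh replicate 1.

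**Figure D3:**
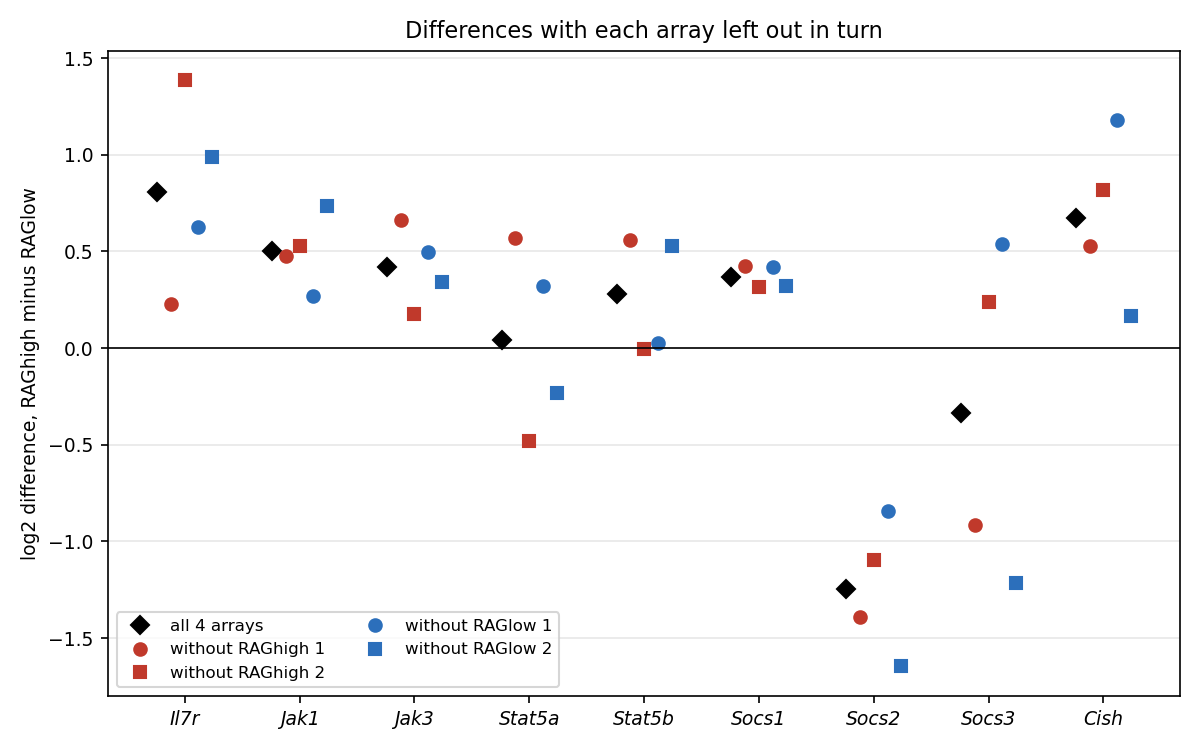
Log2 difference (vertical axis) of the 9 genes with all 4 arrays (black diamond) and with each array left out (red for a CLP_RAGhigh and blue for a CLP_RAGlow array, circle for replicate 1 and square for replicate 2). Il7r ran from 0.23 to 1.39, Cish from 0.17 to 1.18 and Socs2 from -1.65 to -0.84, each on 1 side of 0, while Stat5a and Socs3 lay on both sides.

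The rest of the pathway was read from 5 lists, in which 0 genes passed over all genes with limma in either direction. Their counts are read against all 18193 genes, of which 50.6% had a higher mean in CLP_RAGhigh, 15.4% lay above without overlap and 15.8% below. Values of these genes with 1 array left out carry no test. Other cytokines and receptors of the gamma-chain family, with TSLP and its receptor, numbered 14, of which 8 were higher and 6 lower by mean in CLP_RAGhigh, with a median log2 difference of 0.067. Il2ra, the alpha chain of the IL-2 receptor, read 4.67 and 3.24 in CLP_RAGhigh and 2.88 and 2.48 in CLP_RAGlow, and its difference of 1.28 ± 0.48 was 0.56 without CLP_RAGhigh replicate 1, 0.34 with the offset of 32 and 0.55 with probe sets averaged. Il4ra, a receptor chain that pairs with the common gamma chain for IL-4, was lower on both CLP_RAGhigh arrays, at 6.17 and 6.04 against 7.34 and 6.73, a difference of -0.93 ± 0.39 that was -0.32 with probe sets averaged. The transcripts of the cytokines Il7 and Tslp were dim in these cells, with means of 2.83 and 2.01 in CLP_RAGhigh and 2.50 and 1.80 in CLP_RAGlow.

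The other JAK and STAT genes had a median of 0.10 over 6 measured genes of 7, with 3 in each direction. Stat4 and Jak2 had differences of 0.59 ± 0.33 and 0.59 ± 0.38 without overlap, and Stat2 of -0.46 ± 0.25, which averaging its 2 probe sets took to -0.17. Stat4 was at 0.34 without CLP_RAGhigh replicate 1, and Jak2 at 0.24 without CLP_RAGlow replicate 2. The Jak2 difference was -0.47 with probe sets averaged, so its direction was not settled. Other SOCS genes and negative regulators of the pathway had a median of 0.090 over 18 genes, of which 13 lay above 0 and 5 below. Usp18, which restrains signalling of the interferon receptor, differed by 0.91 ± 0.39, Pias1, of the inhibitors of activated STATs, by -0.66 ± 0.37, Pias4 of the same family by 0.64 ± 0.43, and Socs6 by 0.68 ± 0.54. Averaging the probe sets of a gene gave -0.0023 for Pias1, 0.34 for Pias4 and -0.34 for Socs6, so that the sizes depended on the probe set, as did the direction for Socs6. The value of the brightest probe set was 0.20 for Pias4 without CLP_RAGlow replicate 1 and 0.06 for Socs6 without CLP_RAGhigh replicate 2.

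Genes reported as targets of IL-7 or STAT5 in lymphocytes had a median of 0.17 over 18 genes, of which 13 lay above 0, 9 of them without overlap (15.4% of all genes), and 5 below 0, 2 of them without overlap (15.8% of all genes). The list was not split into induced and repressed genes, so these counts do not measure the output of the pathway. Ebf1, a factor that sets the early B-cell programme, read 9.28 and 9.85 in CLP_RAGhigh and 5.24 and 6.59 in CLP_RAGlow. Its difference of 3.65 ± 0.54 had a limma p of 0.000587 before and 0.334 after adjustment over all genes. Bcl2, an inhibitor of cell death, was lower on both CLP_RAGhigh arrays, at 8.52 and 8.63 against 9.43 and 9.33, a difference of -0.81 ± 0.26 with an adjusted p of 0.869, and of -1.55 with its 5 probe sets averaged. Foxo1 differed by 1.30 ± 0.53 and Pax5 by 1.01 ± 0.44, the latter 0.41 with the offset of 32. Without CLP_RAGhigh replicate 1, on which both were highest, the differences were 0.72 for Foxo1 and 0.42 for Pax5.

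Genes reported as regulators of Il7r transcription had a median of 0.20 over 12 measured genes of 13, of which 10 lay above 0, 7 of them without overlap (15.4% of all genes), and 2 below 0, 1 of them without overlap (15.8% of all genes). Gfi1b, a repressor of the GFI1 family, read 5.23 and 5.62 in CLP_RAGhigh and 7.50 and 7.23 in CLP_RAGlow, a difference of -1.94 ± 0.37 with a limma adjusted p of 0.519. Ets1 differed by 0.63 ± 0.25 and Ikzf1 by 0.42 ± 0.23, both higher on both CLP_RAGhigh arrays, but Ets1 was at -0.13 with probe sets averaged and Ikzf1 at 0.14 without CLP_RAGlow replicate 1. Foxo1, also on this list, had its highest value on CLP_RAGhigh replicate 1, 10.15, and 9.002 on replicate 2, against 7.74 and 8.82 in CLP_RAGlow.

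**Figure D4:**
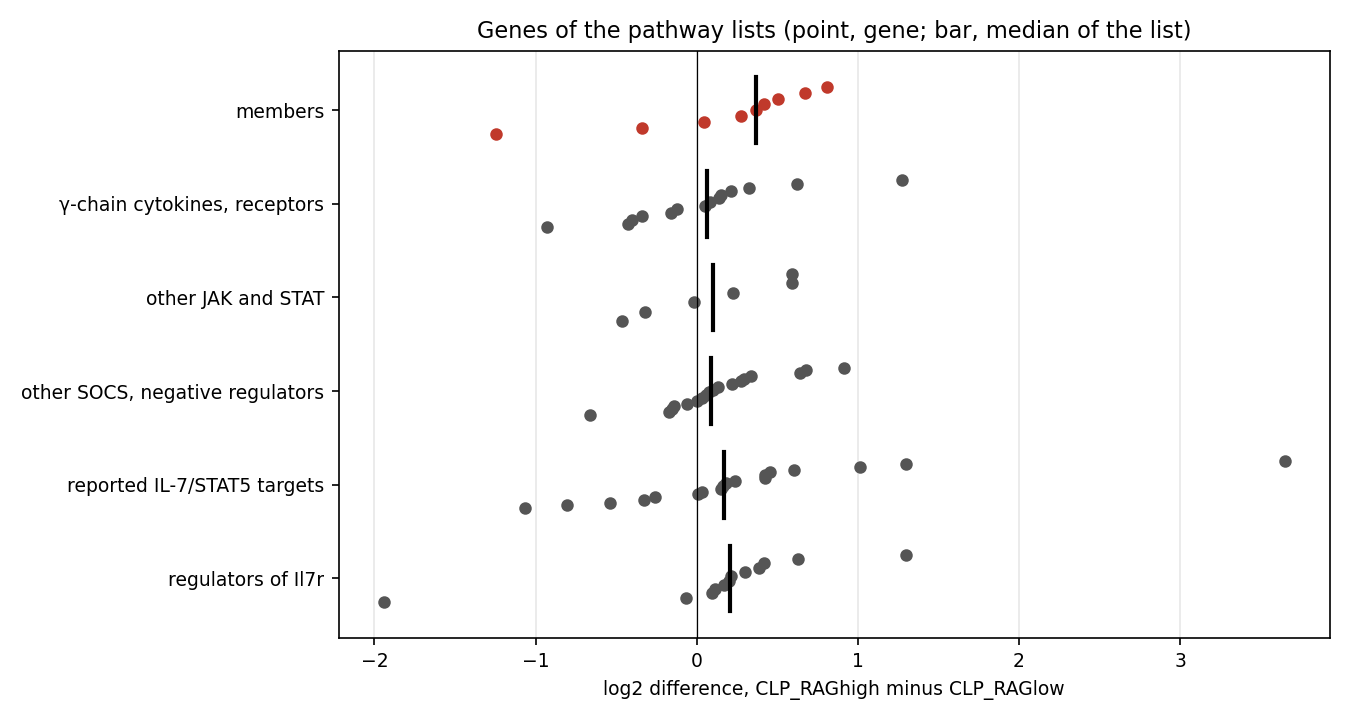
Log2 difference, CLP_RAGhigh minus CLP_RAGlow, of the 9 members (red) and of the genes of 5 pathway lists (grey), each point a gene and each black bar the median of its list. The medians of the 5 lists lie between 0.067 and 0.20 and that of the members at 0.37; Ebf1, at 3.65, is the point farthest to the right and Gfi1b, at -1.94, the one farthest to the left.

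Markers of other cell types that the sort could hold were summed on each array as intensities. Erythroid markers (8 of 10 measured) summed to 262 to 450 in CLP_RAGhigh and 168 to 236 in CLP_RAGlow, with 1 gene dim on all arrays. Klf1 and Hbb-b2 were brightest by group mean. The sum of 450 was that of CLP_RAGhigh replicate 1. Car1, chosen after its values were seen, read 7.15 on that array and 3.67 to 4.30 on the others. Mature B-cell markers (9 of 10) summed to 4079 to 6331 and 3704 to 4203, most of it Ighm, and natural killer markers (9 of 10) to 920 to 961 and 709 to 841, with 3 and 4 genes dim on all arrays. Plasmacytoid dendritic cell markers (7 of 8) summed to 3104 to 4283 and 4733 to 6040, most of it Irf8, Tcf4 and Ccr9. Of these 7, 5 had a lower mean in CLP_RAGhigh, 3 of them without overlap (15.8% of all genes), and 2 a higher mean. Of these 2, Siglech lay above without overlap (15.4% of all genes), at 5.10 and 5.25 against 4.98 and 4.76. Granulocyte and monocyte markers (13 of 14) summed to 5558 to 5958 and 5048 to 9087, led by Mpo and Lyz1, the lowest sum being that of CLP_RAGlow replicate 2, where 5 of the 13 were dim. T-cell markers (10 of 10), at 305 to 505 and 328 to 342, had 4 genes dim on all arrays, and stromal markers (10 of 10), at 144 to 175 and 156 to 171, had 3. Above and below without overlap were 4 and 1 of the natural killer markers and 3 and 2 of the B-cell markers. The counts were 3 and 0 for T-cell and 1 and 3 for granulocyte and monocyte markers. They were 1 and 1 for erythroid and 0 and 0 for stromal markers. None of these genes passed over all genes with limma, and their part in the differences of the pathway genes was not tested.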

How the data were processed

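The deposited values are 1 linear intensity per probe set from the authors' RMA algorithm, per the series' design text; its software and version were not given in the sources read here. They ran from 2.35 to 19892.5, and log2 was taken here. Of 45101 rows, 64 controls were left out, and of the other 45037 probe sets 34945 had 1 gene in the platform annotation, 932 several and 9160 none. The gene IDs of all 21 member probe sets carried the same symbol in the reference table. Each gene was read from its brightest probe set by mean log2 (18193 genes), and a second fit used all 34945 probe sets. Both used limma 3.58.1 in R 4.3.3 (lmFit, eBayes with an intensity trend, 2 residual and 3.75 prior degrees of freedom), two-sided, with Benjamini-Hochberg adjustment and a threshold of 0.05. The script was tested on simulated data. "Dim" means below 3.88, the median log2 of all probe sets. Figures were drawn with matplotlib 3.10.9.

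The members and lists were chosen with earlier results of these data known. Named are the members, up to 4 genes of each pathway list with the smallest p, progenitor genes, the brightest marker genes, and the 5 genes closest to Il7r. Alternatives changed the probe set, offset, normalization, filter, variance model, replicate block and arrays used; the counts of members under them, and the list genes with an array left out, were added afterwards.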

Additional observations from a re-analysis of the deposited data

How the results depend on the processing

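Over 14 alternatives, 121 of 126 values of the 9 genes kept their direction, and 0 had a limma adjusted p under 0.05 (lowest 0.553). The number of genes called among all genes, 0 as reported, was 2 with probe sets averaged, 3 with quantile normalization, 21 with arrays shifted to the same 75th percentile, 1 without dim genes and 7 with the replicate block, none of them a member, and 0 with any 1 array left out. The fit of all probe sets called 0 under each of its 9 alternatives. Replicate numbers are shared between groups. Deviations of same-numbered arrays had a correlation of -0.025 over 18193 genes. With 1 deviation per group for each gene, this cannot settle whether the numbers pair the samples. With the replicate block, Il7r had an unadjusted limma p of 0.0457 (adjusted 0.872) and Socs2 of 0.0227 (adjusted 0.723). All 5 reversals came from leaving out 1 array, which assumes that the lone array of a group varies like the other group. Stat5a then ran from -0.48 to 0.57 (its dim probe set from -0.024 to 0.21), Stat5b from -0.0030 to 0.56 and Socs3 from -1.22 to 0.54 (its other probe sets from -0.87 to 0.017 and from -1.81 to 0.91). A dim and a faint probe set of Socs2 ran from -0.24 to 0.69 and from -0.25 to 0.072. The cause was not tested. Of the 9 genes, 7 had a higher mean under each alternative with all arrays, and 6 to 8 with 1 left out. Those without overlap, 6 as reported, numbered 5 with quantile normalization and without probe sets marked _x_ or _s_, 6 or 7 under the others with all arrays, and 6 to 9 with 1 left out, where 3 arrays leave 60.2% to 71.4% of all genes without overlap. Signal near background limits the dim probe sets.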

Other observations

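Crlf2, the TSLP receptor chain that pairs with the product of Il7r, read 9.63 and 9.60 in CLP_RAGhigh and 9.37 and 9.74 in CLP_RAGlow, a difference of 0.05 ± 0.24 with overlap; it was chosen after its values were seen.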
